A study of Mus musculus with 2 samples.

Results

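The S100 genes encode small calcium-binding proteins, and 8 of them (S100a4, S100a6, S100a8, S100a9, S100a10, S100a11, S100a14, and S100a16) were followed here among the 32285 genes listed for the libraries. They were picked by symbol, and their levels were read in 10 classes of epithelial cells. The cells were tdTomato-positive cells sorted from the back skin of mice at P1, after the epidermis had been taken off and the fraction with the growing hair follicles (HFs) kept. Each genotype had 1 library (labels PADI4 WT and PADI4 cKO, both of batch 1). In the cKO the floxed Padi4 alleles (Padi4 fl/fl) are deleted by a K14-Cre that is active in skin epithelium and also switches on the Ai14 tdTomato reporter. The labels give the genotype of the other library as WT without its alleles, and their protocol names K14-Cre Padi4 fl/fl mice for both. The number and sex of the animals in a library are not stated.

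Most S100 proteins work as dimers. They take hold of partners such as annexins, the giant scaffold Ahnak or nonmuscle myosin. In many of them, though not in all, the surface for this opens when calcium binds to the EF-hands. A few of them are released from cells and bind the receptors Ager (RAGE) and Tlr4. In skin, several S100 genes lie in the epidermal differentiation complex together with the genes of the cornified envelope and the S100-fused proteins of hair and epidermis, such as trichohyalin and filaggrin.

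In the GRCm38 annotation (GENCODE vM21), all 8 genes lie on chromosome 3, in separate groups. S100a14 (chr3:90526856-90528837, plus strand), S100a16 (chr3:90537254-90543151, plus), S100a4 (chr3:90603771-90606045, plus, overlapping the gene model Gm42674), S100a6 (chr3:90612882-90624181, plus), S100a8 (chr3:90668978-90670035, plus), and S100a9 (chr3:90692632-90695721, minus) share a stretch of 169 kb. S100a11 (chr3:93520488-93526287, plus) and S100a10 (chr3:93555080-93564643, plus) follow 2.83 Mb further on, and together cover 44.2 kb. No 31-base stretch in the last 500 bases of the transcripts of any of the 8 genes occurred in a transcript of another listed gene, so their 3′ reads can be told apart from those of their paralogs.

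The starts of these genes are shown because scarce genes (S100a4, S100a8, and S100a9) and abundant ones (S100a6, S100a11, and S100a16) differ there in the sequence TATAAA. This difference was seen once the levels were known. RefSeq windows (GRCm38.p6) were at hand for 6 of the 8 genes, but not for S100a10 and S100a14, which were also abundant. Each window is given 5′ to 3′ on the strand of the gene, from 60 bases before to 20 after the start, or from 145 before for S100a11. Capitals mark TATAAA, the core of a TATA box, and TGAGTCA, the sequence that AP-1 factors recognize, each searched on both strands.
S100a4, chr3:90603710-90603789, plus strand: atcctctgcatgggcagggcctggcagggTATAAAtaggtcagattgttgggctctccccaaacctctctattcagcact
S100a8, chr3:90669011-90669090, plus strand: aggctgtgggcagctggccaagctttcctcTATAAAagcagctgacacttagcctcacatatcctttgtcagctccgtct
S100a9, chr3:90695702-90695781, minus strand: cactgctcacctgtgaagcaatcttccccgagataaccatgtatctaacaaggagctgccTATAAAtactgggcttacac
S100a6, chr3:90612834-90612913, plus strand: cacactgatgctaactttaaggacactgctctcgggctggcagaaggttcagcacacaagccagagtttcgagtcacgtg
S100a16, first start, chr3:90537194-90537273, plus strand: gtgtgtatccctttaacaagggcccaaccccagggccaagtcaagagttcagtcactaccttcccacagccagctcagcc
S100a16, second start, chr3:90541086-90541165, plus strand: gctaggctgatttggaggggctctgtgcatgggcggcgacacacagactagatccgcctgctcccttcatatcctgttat
S100a11, chr3:93520351-93520515, plus strand: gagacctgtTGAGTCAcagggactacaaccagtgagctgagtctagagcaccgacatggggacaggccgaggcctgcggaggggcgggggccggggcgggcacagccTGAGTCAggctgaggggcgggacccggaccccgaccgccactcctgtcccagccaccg

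TATAAA began 31 bases before the start of S100a4 and 30 before that of S100a8, and at the listed start itself in S100a9. Of 32851 promoter windows of 80 bases, 4.49% held it on either strand, and 13.6% of those of 300 bases. The windows of S100a6, S100a11, and S100a16 held none. TGAGTCA lay 136 and 38 bases before the start of S100a11, and of all windows of 300 bases 5.20% held at least 1 copy and 0.222% at least 2. The shorter stretch printed for S100a11 was set to hold both. These matches describe letters only and say nothing of which factor binds there.

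Each captured mRNA molecule was counted by its unique molecular identifier (UMI), levels are given as UMIs of a gene per 1000000 UMIs (CPM), and the libraries held 143938990 and 143945294 UMIs over all barcodes. After the cell filters of the study, 8070 PADI4 WT and 7393 cKO-labelled cells were left, with medians of 14670 and 16208 UMIs, and 14 barcodes were shared. Cells were put into classes by the marker genes they held, without any S100 gene, which placed 68.8% and 73.1% of them, and names such as ORS-like mean that at least 3 markers of the list were detected above the other cells. The classes were interfollicular epidermis (IFE), upper HF (uHF), sebaceous gland (SG), outer root sheath (ORS), lower proximal cup (LPC), germinative layer (GL), inner root sheath (IRS), cortex (Cx), and medulla (Med), and cells led by Krt75 and Krt6a were kept as Krt75-high cells, since only 2 of the 3 companion layer markers were detected. The smallest class held 59 and 71 cells (SG-like), and the largest 1451 and 1397 (ORS-like). A gate is a cut in a continuous measure, and between 22.0% (SG-like, PADI4 WT) and 100% (Krt75-high, cKO-labelled library) of the cells of a class held only the number of markers that the gate asked for. The deleted gene, Padi4, was scarce and alike in both libraries within counting error, with 73 UMIs (0.813 CPM) in the gated PADI4 WT cells and 65 (0.684 CPM) in the other library, a log2 ratio of −0.25 (95% counting interval −0.75 to 0.25). A 3′ count may read outside the deleted exons, so that library is called cKO-labelled throughout. Y-linked UMIs without Xist were found in 59.6% of the PADI4 WT cells and 0% of the others, and Xist without Y-linked UMIs in 26.8% and 99.7%, so that sex and genotype cannot be told apart where all cells are used.

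With 1 library per genotype there is no replicate and no test. Levels, with exact Poisson 95% intervals, are CPM of the UMIs summed over the cells of a class and library. The intervals cover counting error only. Because 3′ UMI counts do not grow with transcript length, levels of different genes were set side by side as counts of molecules. Neighbors in an order of classes are called apart when the ranges over the 2 libraries do not overlap.

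S100A6 (calcyclin), which binds annexins and the ubiquitin ligase component Cacybp, had the highest levels of the 8. S100a6 reached 4450 CPM (4341 to 4561) in the PADI4 WT Krt75-high cells and 4678 CPM (4563 to 4796) in those of the cKO-labelled library. ORS-like cells followed with 2080 and 2143 CPM, and IFE-like cells with 945 and 1390 CPM. The place of the IFE-like cells depended on the gate, since a cluster led by Krt1, with 84 PADI4 WT and 38 cKO-labelled cells, had 2223 CPM among its PADI4 WT cells. Keratinocytes of the upper HF and of its lower cup were intermediate, where uHF-like cells had 740 and 836 CPM, and LPC-like cells 554 and 663 CPM. These values may average unlike cells. Of the clusters named LPC, that led by Frem1 had 258 and 280 CPM, and that led by Cacna2d3 had 1255 and 1213 CPM. An unnamed cluster led by Aldh3a1, which shared leading genes such as Pparg with the uHF-like cells, had 252.4 and 252.5 CPM. As gated, S100a6 was lower in the hair-forming lineages, with 488 and 278 CPM in Med-like, 272 and 287 CPM in GL-like, 236 and 282 CPM in Cx-like, and 230 and 223 CPM in IRS-like cells. SG-like cells were lowest, with 179 CPM (153 to 207) and 127 CPM (108 to 148). The highest class stood 24.9-fold above the lowest among PADI4 WT cells and 36.8-fold among the others. Of the 9 neighbor steps in this order 7 were apart, and the exceptions were Med-like next to GL-like and GL-like next to Cx-like cells.

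Shares of cells with the gene were also compared with every cell thinned to 2000 UMIs, since depth differed between classes. S100a6 was then found in 94.8% and 97.3% of Krt75-high cells, 88.2% and 90.8% of ORS-like cells, 27.0% and 25.5% of IRS-like cells, and 13.6% and 9.86% of SG-like cells. The middle classes did not keep the order of their CPM, as LPC-like cells (47.4% and 56.5%), uHF-like cells (51.9% and 51.7%), and Med-like cells (53.0% and 41.0%) changed places between the libraries. Before thinning the shares in the Krt75-high, ORS-like, IRS-like, and SG-like cells were 100% in both libraries, 97.4% and 98.2%, 77.2% and 77.9%, and 37.3% and 33.8%, at median depths that ran from 10211 UMIs in the PADI4 WT ORS-like cells to 17982 UMIs in the cKO-labelled IRS-like cells. The median thinned cell held 8 S100a6 UMIs in the Krt75-high class and 4 in the ORS-like class, in either library. RNA free in the droplets made up at most 7.63% and 6.68% of the UMIs, taken over all gated cells, which for S100a6 is at most 86.9 and 85.6 CPM. In the SG-like cells of the cKO-labelled library, 118 of the 157 S100a6 UMIs (75.2%) came from 8 of 71 cells scored as doublets, and without doublets the level was 41.3 CPM there and 162 CPM in the PADI4 WT library. The log2 ratio of Krt75-high to SG-like cells in the cKO-labelled library then went from 5.20 to 6.88. Since 41.3 CPM lies below the free RNA limit of 85.6 CPM, the size of this larger ratio cannot be read. In the Cx-like cells doublets held 43.2% and 64.7% of the S100a6 UMIs. Without them Cx-like cells had 161 and 130 CPM and lay below the IRS-like cells, at 209 and 182 CPM, which turned that step of the order. Med-like cells, with 36.1% and 32.7% of their S100a6 UMIs in doublets, had 378 and 211 CPM without them.

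**Figure D1:**
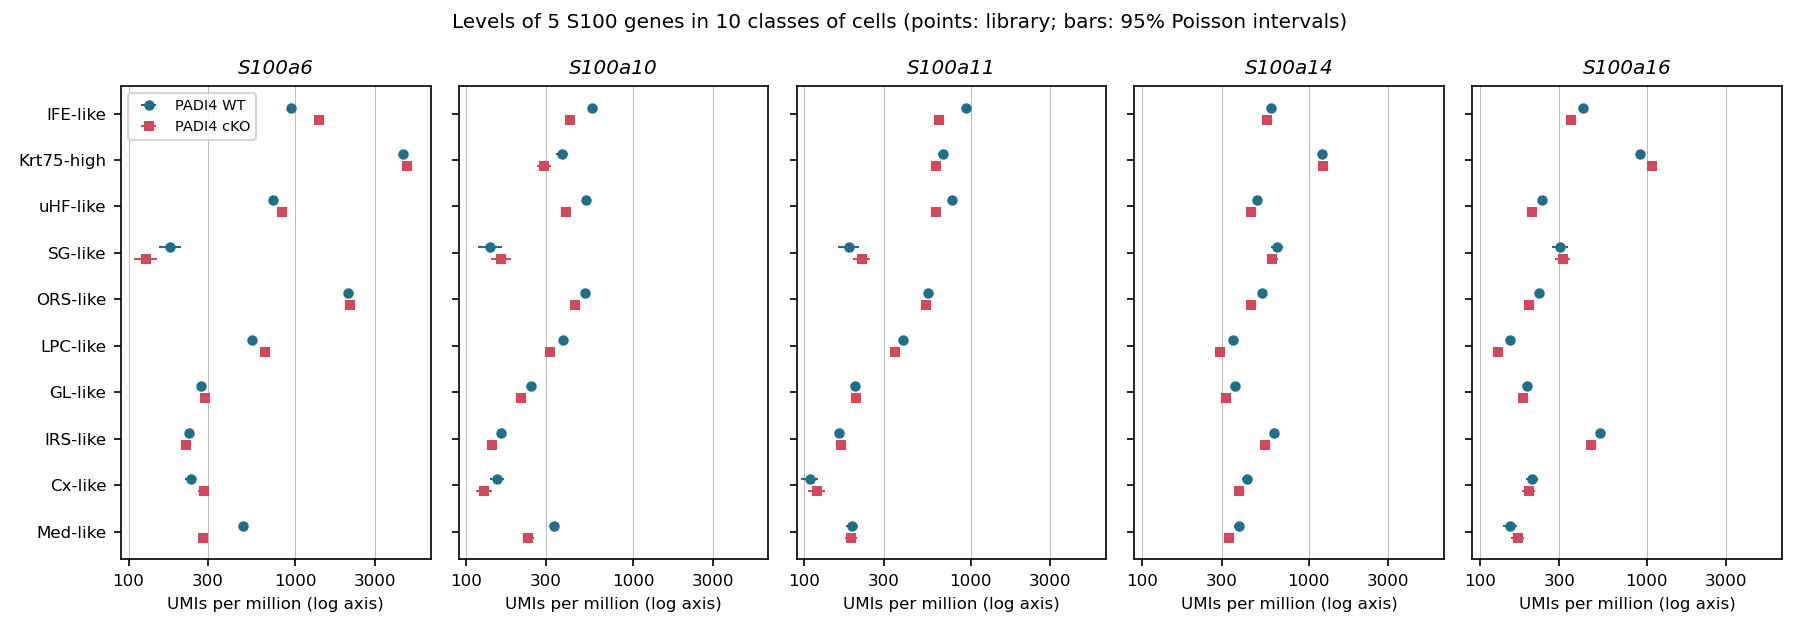
Levels of S100a6, S100a10, S100a11, S100a14, and S100a16 (CPM, log axis) in the 10 classes, 1 point per library with its 95% Poisson interval. S100a6 runs from 127 CPM in SG-like to 4678 CPM in Krt75-high cells, S100a10 and S100a11 are high in the IFE-like, uHF-like, and ORS-like cells, and S100a14 and S100a16 are highest in Krt75-high cells and also high in IRS-like cells.

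S100A14 and S100A16 are members whose calcium binding is weak or altered, and S100A14 is known as a protein of epithelial cells. S100a14 was more evenly spread over the classes than S100a6, S100a11, and S100a16, with a span near that of S100a10. It had 1208 CPM (1151 to 1266) and 1212 CPM (1154 to 1272) in Krt75-high cells, apart from all other classes, then 646 and 606 CPM in SG-like, 619 and 543 CPM in IRS-like, and 597 and 562 CPM in IFE-like cells. Of these, SG-like and IRS-like cells were not apart, nor were IRS-like and IFE-like cells. ORS-like (523 and 448 CPM), uHF-like (491 and 448 CPM), and Cx-like cells (424 and 381 CPM) came next. Med-like (380 and 334 CPM), GL-like (363 and 317 CPM), and LPC-like cells (350 and 294 CPM) were lowest and not apart. The highest class exceeded the lowest by 3.45-fold among PADI4 WT cells and 4.12-fold among the others. As gated, S100a14 was thus the opposite of S100a6 in SG-like cells, where S100a6 was at its lowest and S100a14 ranked second in both libraries. There the ratio of S100a6 to S100a14 UMIs was 0.277 and 0.209, against 3.98 and 4.78 in ORS-like cells. The second rank depended on the gates. A cluster named SG had S100a14 at 769 and 672 CPM, below the cluster named IRS, at 834 and 785 CPM. The cluster led by Krt1 had 900 CPM among its PADI4 WT cells.

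S100a16 was likewise highest in Krt75-high cells, with 916 CPM (867 to 967) and 1084 CPM (1029 to 1142). IRS-like cells followed with 529 and 465 CPM and IFE-like cells with 415 and 354 CPM, and the 3 classes were apart from each other. SG-like cells had 303 and 313 CPM. The remaining classes lay between 129 CPM (LPC-like, cKO-labelled library) and 235 CPM (uHF-like, PADI4 WT). The highest class stood 6.09-fold and 8.41-fold above LPC-like cells, which were lowest in both libraries. Every class held fewer S100a16 than S100a14 UMIs. The ratio was 0.854 and 0.856 in IRS-like and 0.759 and 0.895 in Krt75-high cells, and lowest in the PADI4 WT Med-like cells, at 0.400.

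S100A10, the partner of annexin A2 in a membrane complex that binds plasminogen activators and ion channels, and S100A11 (calgizzarin), which binds annexins A1 and A2, followed another order. S100a11 was highest in IFE-like cells, with 936 CPM (907 to 964) and 645 CPM (615 to 676), then in uHF-like cells with 772 and 617 CPM and Krt75-high cells with 677 and 616 CPM, and these 3 classes were not apart. ORS-like cells (554 and 537 CPM) and LPC-like cells (394 and 350 CPM) came next, each apart from its neighbors. SG-like (186 and 222 CPM), GL-like (202 and 205 CPM), Med-like (195 and 191 CPM), and IRS-like cells (161 and 166 CPM) were low, and Cx-like cells were lowest, with 108 and 119 CPM. IFE-like cells exceeded Cx-like cells by 8.68-fold and 5.42-fold (log2 3.12 and 2.44, and 3.58 and 3.12 without doublets). The place of the Krt75-high cells beside the IFE-like and uHF-like cells depended on how they were taken. A cluster led by Krt75 had S100a11 at 578 and 575 CPM. The cluster led by Krt1 had 1356 CPM (PADI4 WT), and that led by Aldh3a1 had 736 and 649 CPM. Cells with 10 or more Krt75 UMIs, whatever their class, had 668 and 690 CPM.

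S100a10 was the only one of the 6 genes with at least 100 UMIs whose leading class differed between the libraries. It had 567 CPM in IFE-like, 525 CPM in uHF-like, and 519 CPM in ORS-like cells of the PADI4 WT library, and 418, 394, and 447 CPM in those of the other, which were not apart. LPC-like (382 and 316 CPM), Krt75-high (376 and 293 CPM), Med-like (334 and 236 CPM), and GL-like cells (244 and 213 CPM) lay below. IRS-like (162 and 143 CPM), SG-like (139 and 162 CPM), and Cx-like cells (153 and 127 CPM) were lowest. IFE-like cells exceeded Cx-like cells by 3.71-fold and 3.28-fold, and only 2 of 9 neighbor steps were apart.

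In all, 5 of the 6 genes with at least 100 UMIs had the same leading class in both libraries, against 51.4% of the 14293 genes with that many UMIs. At least 4-fold between the highest and the lowest class in each library was found for 4 of the 6 (S100a4, S100a6, S100a11, and S100a16), against 28.3% of those genes. Of the 5 abundant ones alone it was found for 3, against 19.1% of the 477 genes with as many UMIs. The lowest class of S100a4 held 2 and 0 UMIs, but its level in ORS-like cells was also over 4-fold that of LPC-like cells, which held 26 and 45. Under other choices of cells, 4 to 6 and 2 to 5 genes met these counts, with the lowest value of the latter where only 5 classes were large enough.

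The Krt75-high cells were few (77 and 74), and the limit of 5 UMIs of Krt75, Krt6a, or Krt6b that defines them was set after their S100 levels had been seen. The levels were therefore also read in cells grouped by Krt75 UMIs alone, whatever their class. Keratin 75 is a keratin of the companion layer, the flat layer between the ORS and the IRS. S100a6 had 756 and 790 CPM in cells with 0 Krt75 UMIs, 957 and 899 CPM with 2 to 4, 1983 and 1828 CPM with 5 to 9, and 5053 and 5515 CPM with 10 or more. S100a16 went from 260 and 220 CPM to 1089 and 1322 CPM between the same end groups, and S100a14 from 464 and 394 CPM to 1413 and 1400 CPM. S100a10 did not follow, with 376 and 301 CPM at 0 Krt75 UMIs and 337 and 281 CPM at 10 or more. A cluster led by Krt75, Wnt11, and Rbp2 in a clustering without S100 genes held 115 and 110 cells and had S100a6 at 4139 and 4167 CPM. With the limit at 2 UMIs, 3 in place of 4 genes spanned 4-fold.

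**Figure D2:**
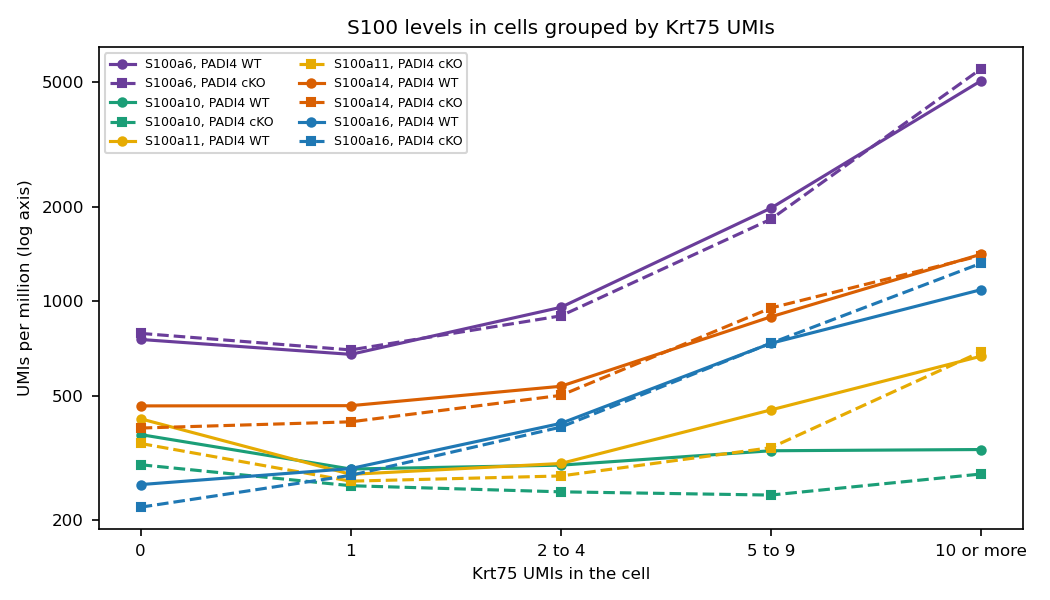
Levels of the 5 abundant S100 genes (CPM, log axis) in cells grouped by their number of Krt75 UMIs, solid lines and circles for the PADI4 WT library and dashed lines and squares for the cKO-labelled library. S100a6 reaches 5053 and 5515 CPM in cells with 10 or more Krt75 UMIs and S100a16 and S100a14 are also highest there, whereas S100a10 stays between 241 and 376 CPM.

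S100A4 (metastasin or FSP1), which binds nonmuscle myosin and is widely used as a fibroblast marker, was rare in the epithelium. S100a4 had 14.6 CPM (244 UMIs) and 13.9 CPM (237 UMIs) in ORS-like cells and at most 10.4 CPM in any other class of epithelial cells. The next were Krt75-high cells, with 4.90 CPM (7 UMIs) and 10.4 CPM (14 UMIs), and IFE-like cells, with 3.17 CPM (14 UMIs) and 6.99 CPM (19 UMIs). The interval of the Krt75-high cells in the cKO-labelled library, 5.7 to 17.5 CPM, covered the ORS-like value. Cells with 10 or more Krt75 UMIs, whatever their class, had S100a4 at 9.6 and 14.8 CPM. ORS-like cells exceeded LPC-like cells, at 2.38 and 2.80 CPM, by 6.03-fold (4.09 to 9.58) and 4.93-fold (3.60 to 6.998). GL-like cells had 1.29 and 1.12 CPM. In the SG-like cells 2 UMIs were found in the PADI4 WT library and 0 of 71 cells held a UMI in the other, which allows a share of up to 4.23% of cells with a UMI. Of the ORS-like cells, 11.2% and 12.5% held a S100a4 UMI, and 2.48% and 2.65% after thinning to 2000 UMIs, against 2.30% and 2.24% of the GL-like cells before and 0.442% and 0.0861% after it. The median depth was 10211 and 11145 UMIs in the ORS-like and 17458 and 19471 UMIs in the GL-like cells, so the class with more S100a4 was the shallower one.

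The 20 and 11 fibroblast-like cells of the sort, which belong to none of the 10 classes, had S100a4 at 183 CPM (131 to 248) and 282 CPM (214 to 365). In the droplets with at most 100 UMIs it made up 24.9 and 25.3 CPM, so free RNA gives at most 1.90 and 1.69 CPM over all gated cells. This limit is an average, and a single cell or class may hold more. GL-like and IRS-like cells were no higher than it in either library, and ORS-like cells lay above it. The 5 fibroblast markers summed to 7.81 and 7.61 CPM over all gated cells and to 12.8 and 14.3 CPM in the ORS-like cells. In the LPC-like cells they summed to 15.1 and 12.9 CPM, and S100a4 had 2.38 and 2.80 CPM there. Of the 162 and 175 ORS-like cells with S100a4, 2 and 7 had a fibroblast marker raised. Cells with at least 2 such markers raised had already been gated as fibroblast-like, so a low count was partly set by the gates. Where the S100a4 UMIs of the ORS-like cells came from was not tested. The gene that the annotation places just before S100a4 is S100a3, which encodes a protein of the hair cuticle. It shares 4.74% of its 31-base stretches with other genes, and it had 586 and 580 CPM in Cx-like cells, where S100a4 had 1.84 and 4.42 CPM. A single PADI4 WT cell held 1037 of the 1590 S100a3 UMIs behind the 586 CPM, so the likeness of the S100a3 levels cannot be read. A S100a3 UMI was found in 73.8% and 74.2% of the Cx-like cells.

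Within the outer root sheath S100a4 and S100a6 were both highest in the same cells. Of 5 ORS-like clusters, that led by Ebf1 and Pdlim3 had S100a4 at 35.5 and 36.7 CPM, and the other 4 had between 6.42 and 12.98 CPM. S100a6 was at 3353 and 3456 CPM there and between 1179 and 2021 CPM in the others. S100a10, with 438 and 396 CPM in this cluster and 421 to 565 CPM in the others, did not set it apart.

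**Figure D3:**
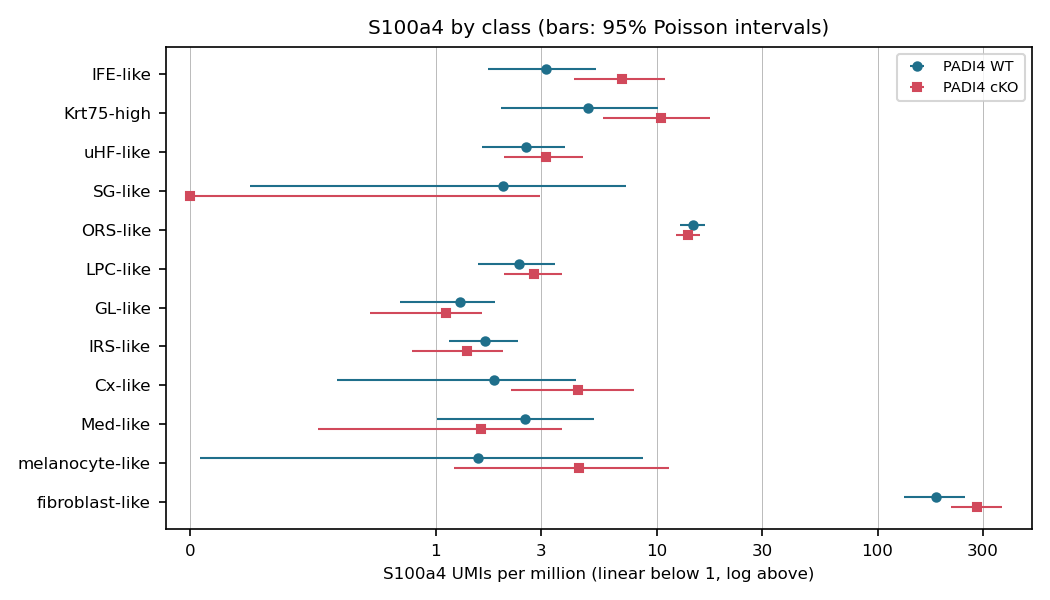
S100a4 level (CPM, linear below 1 and log above) in the 10 epithelial classes and the melanocyte-like and fibroblast-like cells, 1 point per library with its 95% Poisson interval. ORS-like cells stand at 14.6 and 13.9 CPM, above the points of the other epithelial classes, and the fibroblast-like cells at 183 and 282 CPM. The interval of the Krt75-high cells in the cKO-labelled library covers the ORS-like value.

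S100A8 and S100A9 form calprotectin, an abundant protein of neutrophils that stressed keratinocytes also make. They were close to absent from these cells. S100a8 was found in 11 of 8070 and 14 of 7393 cells, with 1 UMI in each of them. In the gated cells it had 7 and 13 UMIs (0.0780 and 0.137 CPM), of which 2 and 9 were in ORS-like and 3 and 2 in uHF-like cells. Among Krt75-high cells, 0 of 77 and 0 of 74 held a UMI, which allows shares of up to 3.90% and 4.05% of cells with a UMI. This limits detection and not the share of cells that express the gene. S100a9 was found in 7 and 3 cells, and no cell held UMIs of both genes. Of the 18 S100a9 UMIs in gated PADI4 WT cells, 12 were in 1 GL-like cell of 18720 UMIs without S100a8, so the 2 UMIs of the other library cannot be set against them. Of 6 neutrophil markers, which summed to 0.913 and 0.779 CPM over the gated cells, Retnlg was at 0 in both libraries and Ltf in the PADI4 WT library. The 6 immune markers summed to 1.05 and 1.15 CPM, with Cd207, Tyrobp, and Lyz2 at 0 in both libraries.

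Some neighboring genes had like profiles over the classes, and others did not. Pearson's r of log2(CPM + 1) was calculated over 20 profiles, 10 classes in each of 2 libraries, which share their cells' depth and gates, and it is given as a description. S100a14 and S100a16, with 8.42 kb between them and no other protein-coding gene, had r = 0.95 (PADI4 WT alone 0.94, cKO-labelled 0.96). S100a10 and S100a11, 28.8 kb apart with none between, had 0.89 (0.90 and 0.91). S100a4 and S100a6, with S100a5 in their gap of 6.84 kb, had 0.84 (0.77 and 0.90). S100a16 and S100a4, which are next to each other among these 6, had only 0.20, and S100a3, the gene just before S100a4, had −0.09 with it. The 12 pairs of the 6 genes beyond the first 3 named lay between −0.04 and 0.81, with a median of 0.41, and the highest of these was S100a6 with S100a11, which lie on different sides of the gap of 2.83 Mb. S100a5 itself had 1 UMI in all gated cells.

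**Figure D4:**
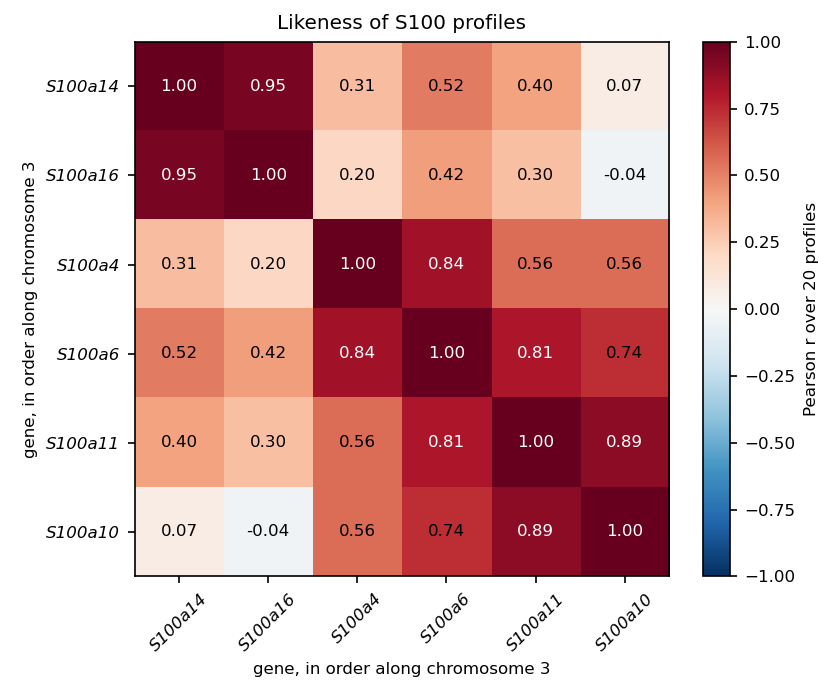
Pearson r of log2(CPM + 1) over 20 class and library profiles for the 6 S100 genes with at least 100 UMIs, in their order along chromosome 3. The pairs S100a14 and S100a16 (0.95), S100a4 and S100a6 (0.84), and S100a11 and S100a10 (0.89) form dark blocks beside the diagonal. So do S100a6 and S100a11 (0.81), which lie far apart on the chromosome. The lowest value is −0.04, for S100a16 and S100a10.

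Among 14293 genes, the profile most like that of S100a6 was that of Myl6, a myosin light chain (r = 0.97), followed by Actg1, an actin (0.97). For S100a11 it was its binding partner Anxa2 (0.96) and then the keratin Krt80 (0.96). S100a10 was closest to Krt5, a keratin of basal cells (0.96), and Cib2 (0.95). Perp, a protein of desmosomes (0.93), and Aktip (0.92) were closest to S100a16. Atp10b (0.92) and Chmp2a (0.92) were closest to S100a14, and Hectd2 (0.92) and Mxra8 (0.89) to S100a4. Gate markers and the 8 genes themselves were left out of this search.

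Of the 8 further S100 genes, 4 had at least 100 UMIs over the gated cells (S100a1, S100a3, S100a13, and S100b), with the same leading class in both libraries, although that of S100b rested on 5 and 2 UMIs. S100a1 and S100a13, the genes next to S100a14 on its other side, were highest in Krt75-high cells as well, at 71.5 and 61.1 CPM and at 37.1 and 42.5 CPM. S100a3 was highest in Cx-like cells, as given above, and S100b in SG-like cells, at 5.04 CPM (1.64 to 11.8) and 1.62 CPM (0.196 to 5.83). The interval of the PADI4 WT value overlapped that of the ORS-like cells, 3.11 CPM (2.32 to 4.07). Of the 7 genes that encode S100-fused proteins only Tchh (trichohyalin) had at least 100 UMIs, with 121 and 30.9 CPM in IRS-like cells, where 9.26% and 9.48% of cells held a UMI and 1 PADI4 WT cell held 1661 UMIs. Flg, Flg2, Hrnr, Rptn, and Tchhl1 had 0 to 2 UMIs in the gated cells.

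Of the 11 partners and receptors, 10 had at least 100 UMIs, 8 of them with the same leading class in both libraries. The leading class was Krt75-high for Anxa1, Anxa2, Ahnak, Sugt1, and Myh9, and Anxa2 ran from 1056 and 1029 CPM there to 81.4 and 90.3 CPM in Cx-like cells. Anxa2 had r = 0.82 with S100a10, its partner, and 0.88 with S100a6. Cacybp (calcyclin-binding protein) had r = −0.64 with S100a6, with levels between 99.9 and 169 CPM. The receptors Ager and Tlr4 were scarce, with 238 and 22 UMIs over all gated cells. This did not hold for Bsg, a further gene of the list, which had 40107 UMIs. Bsg ran from 204.3 to 298.6 CPM over the PADI4 WT classes and from 189.1 to 288.3 CPM over those of the other library.

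Between the libraries, 51 pairs of a gene and a class had at least 100 UMIs in both libraries together and were compared as log2 ratios (cKO-labelled over PADI4 WT). Past 0.5, the limit of the study, lay 1 pair above and 3 below, against 2.56% above and 3.22% below among the 86759 pairs of all genes and classes. Counts this small cannot be set apart from that background. The pair above was S100a6 in IFE-like cells, at 0.56 (0.49 to 0.62), where 6.12% of 8304 genes lay above. The lowest of the pairs below was S100a6 in Med-like cells, at −0.81 (−0.94 to −0.69), where 5.94% of 7340 genes lay below. S100a11 in IFE-like cells was at −0.54 (−0.62 to −0.46), with 5.82% of genes below, and S100a10 in Med-like cells at −0.50 (−0.64 to −0.36). The differences in Med-like cells were smaller in an unnamed cluster of 466 and 347 cells led by the same genes (Ednra, Krtap8-1, and Crtac1), with S100a6 at 333 and 252 CPM and S100a10 at 286 and 227 CPM. In IFE-like cells S100a6 and S100a11 thus differed in opposite directions, from 945 to 1390 CPM and from 936 to 645 CPM. Among these cells, 69.9% of the PADI4 WT cells and 84.4% of the others held only the number of markers the gate asked for.

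S100a10 was lower in the cKO-labelled library in 9 of 10 classes, with a median ratio of −0.27, and so was S100a14, with a median of −0.17. S100a16 was lower in 7 and S100a11 in 6 of 10 classes, and S100a6 was higher in 7 of 10, with medians of −0.13, −0.03, and 0.07. Without doublets S100a6 was higher in 6 of 10, since the Cx-like ratio went from 0.26 to −0.30. Over all genes, 50.3% of the pairs were lower. Cells positive for Xist that lacked Y-linked UMIs, which match the libraries for sex, were numerous enough in the uHF-like, ORS-like, LPC-like, GL-like, and IRS-like classes. In them S100a10 was lower in 5 of 5 classes (−0.31 to −0.14), S100a14 in 5 of 5 (−0.34 to −0.08), and S100a16 in 5 of 5 (−0.43 to −0.01), S100a11 in 3 of 5, and S100a6 in 2 of 5, and no pair was past 0.5. For the 4 pairs past 0.5 in all cells no such value could be had, since the IFE-like and Med-like classes then held under 50 cells in a library. The classes of a gene come from the same 2 libraries and are not independent, and whether these small ratios would return in other animals was not tested.

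**Figure D5:**
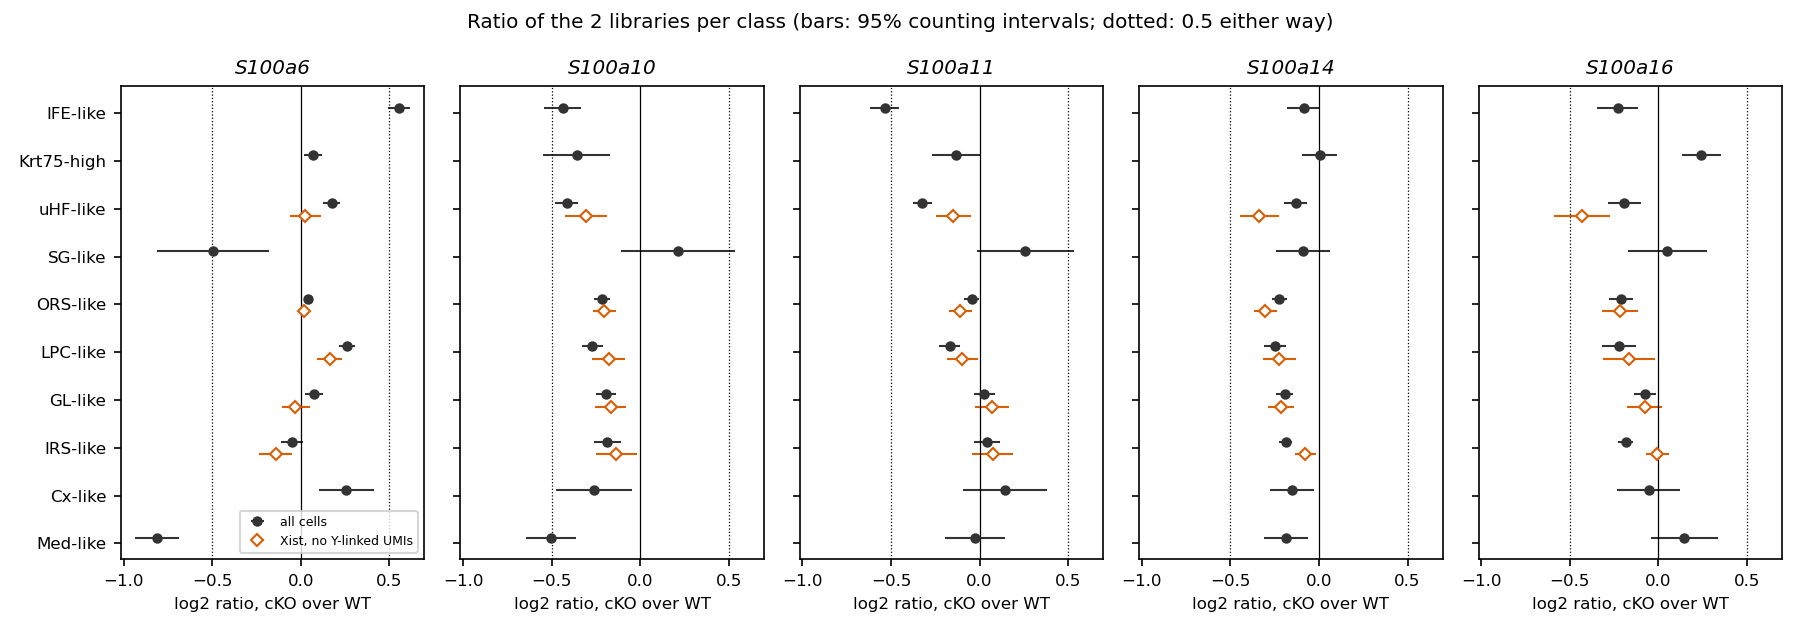
Log2 ratio of the cKO-labelled library over the PADI4 WT library for 5 S100 genes in 10 classes, with 95% counting intervals, filled circles for all cells and open diamonds for cells with Xist and no Y-linked UMIs, where these were at least 50 in both libraries. Dotted lines mark 0.5 in either direction. Beyond them lie S100a6 in IFE-like cells (0.56) and in Med-like cells (−0.81), and S100a11 in IFE-like cells (−0.54). S100a10 in Med-like cells (−0.502) lies just past the line. S100a10 and S100a14 lie at or below 0 in nearly all classes.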

How the data were processed

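Single-cell RNA sequencing libraries, 1 per genotype, were analyzed. The deposited values are whole UMI counts for every gene in every droplet, empty ones too, which the authors produced with Cell Ranger 7.1.0 (file headers) and did not normalize. The submitters' processing notes name mm10, which is GRCm38, and 32235 of the 32285 gene IDs were in the annotation. CellBender and Harmony, which the study used, were not run, so free RNA remains in the counts.

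Cells were kept by UMIs (2000 to 60000), detected genes (1000 to 8000), mitochondrial share (up to 20%), hemoglobin share (up to 1%), and a share of ribosomal UMIs from the 5th to the 99th percentile. A marker was on at 2-fold or more of the mean share and at least 2 UMIs, and 2 markers of a list, more than of any other, gated a cell. Krt75-high cells needed 5 UMIs and the same 2-fold share of Krt75, Krt6a, or Krt6b. They were taken out of the IFE gate and from cells that reached no uHF, SG, IRS, Cx, or Med gate. Cells of the IFE gate with enough Krt6a but without Krt75 thus counted as Krt75-high and not as IFE-like. Doublets were scored with Scrublet in Scanpy 1.11.5. Its own threshold marked 2 PADI4 WT cells, so the one found for the cKO-labelled cells, 0.229, served both libraries and called 298 and 297 cells, which were kept except in 1 alternative. Classes needed 50 cells per library and genes 100 UMIs. Log2 ratios had 0.5 UMI added to each sum and exact conditional binomial intervals from SciPy 1.17.1. Shares that are 0 carry a limit of 3 cells. On simulated data for 11545 genes of the ORS-like cells, 100% of 100 genes raised 2-fold and 99% of 100 lowered ones were past 0.5, and so were 0.591% of the unchanged genes, and on 7001 genes of the smaller Cx-like class 1.66% of them. The named genes were the 8 S100 genes, lists of other S100 genes, S100-fused genes and partners, Padi4, and for each S100 gene the 2 genes with the highest r. The genes, lists and gates were chosen with earlier results of these data known.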

Additional observations from a re-analysis of the deposited data

How the results depend on the processing

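The leading class was the same in both libraries for 4 to 6 of the S100 genes and 4-fold differences between classes were found for 3 to 5, except that 2 spanned 4-fold in cells with Xist and no Y-linked UMIs. Pairs of a gene and a class more than 0.5 below, 3 in the analysis reported, numbered 5 without doublets, 6 in cells thinned to 2000 UMIs, and 0 with Leiden clusters in place of gates, with 1 more marker needed per gate, and in cells with Xist and no Y-linked UMIs. Pairs above, 1 as reported, numbered 3 with a minimum of 20 UMIs per gene, and 0 with 1 more marker and in cells with Xist. With 1 more marker or Xist cells alone, 5 classes fell under 50 cells, and with Leiden clusters 4 classes gave no value, IFE-like for its size and uHF-like, Cx-like, and Med-like because no cluster could be given their name. The IFE-like and Med-like classes, which held the pairs past 0.5, were among those lost each time. Of 491 ratios between the libraries recalculated under 11 alternatives, 411 stayed within their counting interval and 80 moved out of it. A change of sign was counted only for ratios past 0.5, which were 1 above and 3 below as reported, and 0 were found. Of 92 ratios between the highest and the lowest class, 57 stayed within their interval, 35 moved out of it, and 0 changed sign. These classes were picked as extremes of the same data, so a change of sign was unlikely from the start. The largest shift from leaving out doublets was S100a6 in SG-like cells, from −0.49 to −1.96, where the cKO-labelled level then lay below the free RNA limit. The alternative with 2 UMIs of Krt75, Krt6a, or Krt6b was chosen after seeing the data. No paired analysis was possible because each genotype has 1 library, and for the same reason no replicate could be left out. Depth limits S100a8 and S100a9, which had under 100 UMIs, and S100a4, which was comparable between the libraries in the ORS-like cells alone.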
